A study of Arabidopsis thaliana with 12 samples.

Results

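The genes described here carry the plastid steps of photorespiration in *Arabidopsis thaliana*. They were chosen by function, as 8 named genes of the 21882 in the deposited table. No measured value entered the rule, but earlier results of these data were known when the genes were chosen. They are PGLP1 (AT5G36700), GLYK (AT1G80380), PLGG1 (AT1G32080), BASS6 (AT4G22840), DIT1 (AT5G12860), DIT2.1 (AT5G64290), GLU1 (AT5G04140) and GS2 (AT5G35630). All 8 were found in the table, and 7 of them averaged at least 1 CPM over the groups, where CPM is the number of reads of a gene scaled to a common total of reads per library. PGLP1 did not.

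Photorespiration begins when Rubisco fixes O2 in place of CO2 and forms phosphoglycolate, which the plastid phosphatase PGLP1 turns into glycolate. Glycolate leaves the plastid through PLGG1 and BASS6, is oxidised in peroxisomes with release of H2O2, passes as glycine through mitochondria, and comes back to the plastid as glycerate, which PLGG1 imports and GLYK phosphorylates for the Calvin cycle. The ammonium freed in mitochondria is refixed in the plastid by glutamine synthetase GS2 and ferredoxin-dependent glutamate synthase GLU1, while DIT1 brings in 2-oxoglutarate and DIT2.1 sends out glutamate, each in exchange for malate.

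RNA was sequenced from leaf material of cat2-2 seedlings, an insertion line without functional CATALASE2, the main peroxisomal catalase of leaves, in 4 groups of 3 biological replicates. On day 7 the liquid medium was exchanged for medium with 10 µM pakerine, a sulfonamide tested for its protection of cat2 plants, or with its solvent DMSO. The groups DMSO and Pakerine were harvested after 4 days of incubation with 16 h of light per day. Stress and Stress + Pakerine plants then spent another 2 days under continuous light (24 h) of 100 µmol m-2 s-1 with their plates sealed, so that stress, age and day length cannot be told apart. All groups carried cat2-2 and none was wild type, and CAT2 itself was listed at 19.5, 76.1, 37.2 and 108 CPM in DMSO, Stress, Pakerine and Stress + Pakerine. In 6 of the 12 libraries the sample title names another group than the treatment fields do. The group names used here follow the treatment fields, while the values are group means under headings of their own. These headings read DMSO, DMSO + RGCL, Pakerine and Pakerine + RGCL. RGCL is not explained in the sources used here. It was read as the stress condition because stress and pakerine are the only factors.

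The table lists for each gene the authors' mean CPM of each group, and the value of a single library is not listed. The number of reads counted in each library could be read from the smallest steps of these means and lay between 28472236 and 33512708. For genes under 10 CPM in every group, whole reads in each library followed from the means, which gave BASS6, PGLP1 and the near copy PGLP1B a spread over 3 libraries. For the other 6 members the spread between libraries is not known. Their values are descriptions without a test, and each ratio of group means has a 95% exact binomial interval that covers counting error only. Of the leaf mesophyll markers, 6 of 6 were listed at 39.5 CPM or more in every group, and the sum of the list was 13893 CPM in DMSO and 16044 in Stress, and 16717 in Pakerine and 17915 in Stress + Pakerine. All 15 root cell markers were also above 0 in every group, and their sum was 1636, 698, 2002 and 1174 CPM in the same order, most of it from PYK10, an abundant β-glucosidase. Without PYK10 the sum was 88.6, 76.4, 165 and 150 CPM, of which SCR alone was listed at 44.0, 47.6, 45.3 and 51.0 CPM. Of the 12 root markers that averaged at least 1 CPM, 0 were past 1.5-fold higher and 6 lower in Stress against DMSO. In Pakerine against DMSO 7 were higher and 1 lower, and in Stress + Pakerine against Stress 9 were higher and 0 lower. The part of this shift in the differences of the members was not tested. In such bulk samples, fewer cells of a type and less RNA per cell cannot be told apart.

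PGLP1 is shown first because its value in this table cannot be read as its level. In TAIR10.1 the gene lies at chr5:14421182-14424610 on the minus strand, and its near copy PGLP1B (AT5G36790) lies at chr5:14480482-14483927. All 3429 bases of PGLP1, exons and introns, recur without a change at PGLP1B. The identical stretch reaches beyond the genes, over 44000 bases that occur at chr5:14405560-14449559 and again at chr5:14464860-14508859. The coding sequences of 1089 bases are the same base for base, as the first 60 coding bases of each gene show, with the start codon in capitals.
PGLP1: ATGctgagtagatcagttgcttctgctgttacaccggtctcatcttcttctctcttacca
PGLP1B: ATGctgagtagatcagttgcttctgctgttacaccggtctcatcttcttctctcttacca
Of the 1729 stretches of 75 bases, the read length, in the longest PGLP1 transcript, all 1729 also occur at PGLP1B. PGLP1B has 74 stretches of its own among 1689, all of them across a single splice junction that the annotation gives only to this copy.

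The table used here lists few genes of this repeat. Each copy holds 7 annotated protein-coding genes, of which 1 is listed, PGLP1 or PGLP1B. Outside the repeat, 76.3% of the 27546 protein-coding genes are listed, with a median of 16.0 CPM. According to the methods, the authors kept only genes above a low CPM limit, so that a gene can also be unlisted because it is scarce. Whether this holds for the unlisted genes of the repeat was not tested. How reads with more than 1 position were counted is not given in the sources used here.

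PGLP1 was listed at 0.225 CPM in DMSO and 0.170 in Stress, and 0.191 in Pakerine and 0.162 in Stress + Pakerine. These means rest on 20, 16, 18 and 15 reads over the 3 libraries of each group. Single libraries held 6, 6 and 8 reads in DMSO, 5, 5 and 6 in Stress, 5, 6 and 7 in Pakerine and 2, 6 and 7 in Stress + Pakerine. In reads the ranges of all 4 groups overlap, while in CPM the Stress libraries at 0.164 to 0.180 lie below the DMSO libraries at 0.197 to 0.281. The same holds for 28.5% of the 5239 genes with recovered reads and at least 1 CPM. PGLP1 is too scarce to be among them, so that this share is not matched to its few reads. The Stress to DMSO ratio of 0.754 had a counting interval of 0.368 to 1.54, so that no difference in either direction was detectable at this depth.

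PGLP1B, whose reads cannot be told from those of PGLP1 outside that junction, was listed at 1.02, 0.968, 1.3 and 0.796 CPM in DMSO, Stress, Pakerine and Stress + Pakerine. Its libraries ranged from 0.808 to 1.15 CPM in DMSO, 0.723 to 1.25 in Stress, 1.07 to 1.52 in Pakerine and 0.653 to 0.888 in Stress + Pakerine. Only the Pakerine and Stress + Pakerine ranges are apart, and Stress + Pakerine lies wholly below Pakerine for 23.4% of the 5239 genes. With limma on the recovered reads the difference between them was -0.47 on the log2 scale with an SE of 0.18 and an adjusted p of 0.0707. Counts over members are over the 7 without PGLP1.

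**Figure D1:**
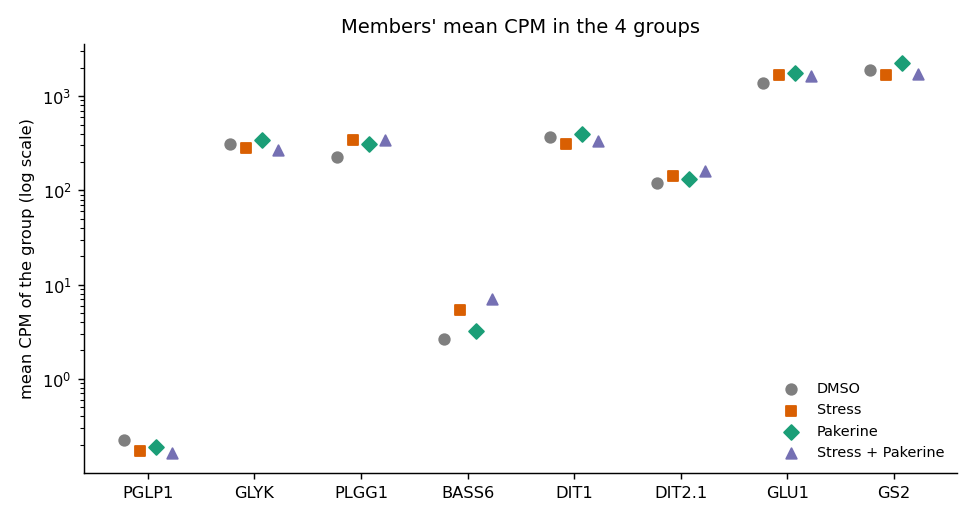
The authors' mean CPM (vertical axis, log scale) of the 8 members in DMSO, Stress, Pakerine and Stress + Pakerine, 1 symbol per group and gene. GS2 and GLU1 lie between 1391 and 2224 CPM, BASS6 between 2.62 and 7.00 CPM and PGLP1 below 0.3 CPM.

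Apart from PGLP1, the mean CPM of the members ran from 2.62 for BASS6 to 2224 for GS2, with the nitrogen enzymes at the top. GS2, which joins ammonium to glutamate, was listed at 1881 CPM in DMSO and 1671 in Stress, and 2224 in Pakerine and 1732 in Stress + Pakerine. GLU1, which makes glutamate from glutamine and 2-oxoglutarate, was listed at 1391, 1687, 1763 and 1654 CPM in the same order. Both were among the 40 most abundant genes of the table in every group, and together they took 75.2% to 77.1% of the CPM of the 8 members.

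Levels of different genes were compared per kb of the longest transcript. In DMSO the order of the levels was GS2 at 998 CPM per kb, GLU1 at 257, DIT1 at 156, GLYK at 127, PLGG1 at 113, DIT2.1 at 52.3 and BASS6 at 1.75. In Stress the glycolate and glycerate exchanger PLGG1, at 171 CPM per kb, stood above DIT1 at 128 and GLYK at 115. In Stress + Pakerine PLGG1 also stood above both, at 171 against 141 and 110, whereas in Pakerine it stood between DIT1 at 165 and GLYK at 139. Whether neighbours in this order differ beyond the spread between libraries cannot be said for these genes, and with coding length in place of transcript length GLYK at 226 stood above DIT1 at 223 in DMSO, and PLGG1 at 203 stood below GLYK at 249 in Pakerine.

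Of the glycolate exporters, PLGG1 had much the larger share of the RNA. It was listed at 227 CPM in DMSO and 344 in Stress, and 313 in Pakerine and 344 in Stress + Pakerine. The DMSO mean is the low one, and the other 3 groups lie close together. The Stress to DMSO ratio was 1.52 with a counting interval of 1.49 to 1.55, and the Pakerine to DMSO ratio was 1.38 with an interval of 1.36 to 1.41. Within pakerine-treated plants the ratio of stressed to non-stressed was 1.1, and under stress the ratio of pakerine to DMSO was 0.999, with an interval of 0.984 to 1.02. On the log2 scale the stress effect on PLGG1 was 0.60 without and 0.14 with pakerine, a difference of -0.47 that is the lowest of the 7 members.

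BASS6, a member of the bile acid sodium symporter family that exports glycolate, was the only member with known replicate spread and a level that allows a test. Its libraries were at 2.39, 2.53 and 2.95 CPM in DMSO and at 5.16, 5.30 and 5.85 CPM in Stress. In Pakerine they were at 2.93, 3.16 and 3.49 CPM and in Stress + Pakerine at 6.44, 7.14 and 7.41 CPM. All 6 stressed libraries lie above all 6 non-stressed libraries, and the DMSO and Pakerine ranges overlap by a narrow margin.

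BASS6 rose with stress in both chemical treatments. The mean of 3 libraries was 2.62 ± 0.292 CPM (SD, n = 3) in DMSO and 5.44 ± 0.367 CPM (SD, n = 3) in Stress. The log2 difference was 0.93 with an SE of 0.12, and its adjusted p was 3.8e-05 in limma with Benjamini-Hochberg adjustment over the 5239 genes for which reads were recovered and which averaged at least 1 CPM. In pakerine-treated plants BASS6 went from 3.19 ± 0.279 CPM (SD, n = 3) to 7.00 ± 0.50 CPM (SD, n = 3) with stress, a log2 difference of 1.02 with an SE of 0.12 and an adjusted p of 1.3e-05 in limma. Stress + Pakerine against DMSO gave a log2 difference of 1.27 with an SE of 0.12 and an adjusted p of 1.23e-06 in limma.

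For pakerine the differences of BASS6 were smaller and did not pass the threshold of 0.05. Without stress the log2 difference was 0.24 with an SE of 0.12 and an adjusted p of 0.235 in limma. Under stress it was 0.34 with an SE of 0.12 and an adjusted p of 0.0803 in limma, and the 3 libraries of Stress + Pakerine lie above those of Stress. When the median of each library was set equal, a scaling added after the values had been seen, the difference was 0.13 without stress and 0.15 under stress, with adjusted p of 0.463 and 0.38 in limma. The stress effects with and without pakerine differed by 0.09 with an SE of 0.18 and an adjusted p of 0.938 in limma. These p-values measure only the spread between libraries within groups of 3 samples. In limma this spread was pooled over all 4 groups and drawn toward a trend over the 5239 genes.

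Many genes of this abundance passed the same test. Of the 5239 genes, 14% were called higher in Stress against DMSO, 13.1% in Stress + Pakerine against Pakerine and 25.8% in Stress + Pakerine against DMSO. For pakerine, 14.8% were called higher in Pakerine against DMSO and 15.3% in Stress + Pakerine against Stress. A difference of the stress effects with and without pakerine was called above 0 for 0.0573%. All 3 libraries lay above all 3 of the other group for 17.8% of the genes in Stress against DMSO, for 17.8% in Stress + Pakerine against Pakerine, for 22.9% in Stress + Pakerine against Stress and for 29.3% in Stress + Pakerine against DMSO. The SD of BASS6 between libraries of a group was 0.108 on the log2 scale, against a median of 0.176 over the 2362 of these genes that averaged 3 to 7 CPM.

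**Figure D2:**
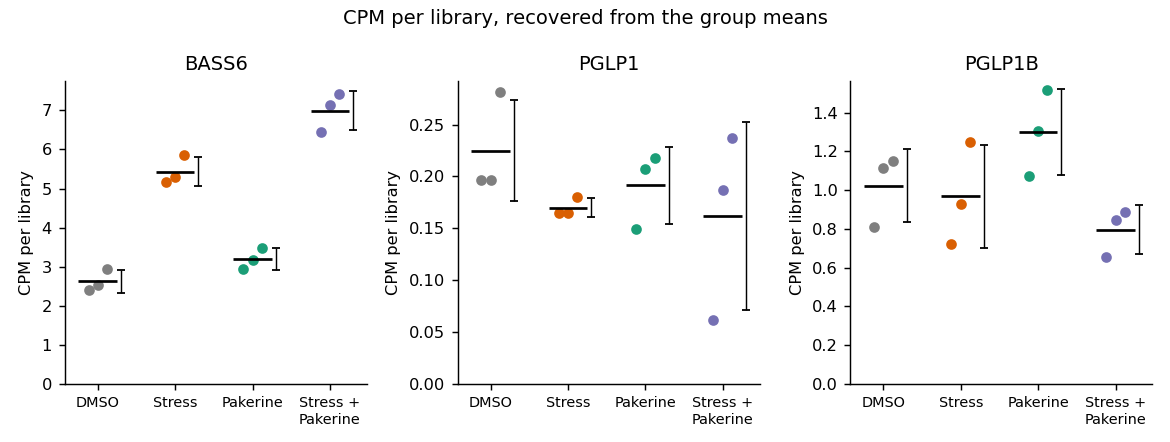
CPM per library (vertical axis) of BASS6, PGLP1 and PGLP1B in the 4 groups, with 1 point per library in order of value, the mean as a horizontal line and the SD of 3 libraries as a bar beside it. BASS6 is above 5 CPM in all 6 stressed libraries and below 4 CPM in the others, while the PGLP1 points stand for 2 to 8 reads each.

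PLGG1 and BASS6 export the same metabolite, and the ratio of their levels was lower in the stressed groups. Per kb of transcript, PLGG1 was 64.6 times as abundant as BASS6 in DMSO and 73.3 times in Pakerine. In Stress the ratio was 47.3 and in Stress + Pakerine 36.7.

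The 250 bases before the annotated starts of PLGG1 and BASS6 are shown because these were the members past 1.5-fold with stress. They are read from RefSeq TAIR10.1 on the coding strand, at chr1:11539897-11540146 for PLGG1 and at chr4:11993810-11994059 for BASS6, both on the minus strand. Capitals mark any of the letters CACGTG (G-box), GATAAG (I-box), TTGAC (W-box), AAATATCT (evening element), TGACG or TGTCTC (auxin response element), searched on both strands, where TTGAC and TGACG can overlap.
PLGG1: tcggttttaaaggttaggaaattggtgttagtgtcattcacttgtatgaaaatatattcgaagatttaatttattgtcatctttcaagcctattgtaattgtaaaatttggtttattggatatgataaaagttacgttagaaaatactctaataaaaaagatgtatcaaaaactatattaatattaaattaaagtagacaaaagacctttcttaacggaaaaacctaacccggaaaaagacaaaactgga
BASS6: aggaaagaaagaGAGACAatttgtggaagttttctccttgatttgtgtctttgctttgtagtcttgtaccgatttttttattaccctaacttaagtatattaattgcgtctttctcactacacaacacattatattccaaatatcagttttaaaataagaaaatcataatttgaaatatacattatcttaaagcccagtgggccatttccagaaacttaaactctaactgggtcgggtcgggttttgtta
The PLGG1 stretch holds none of the 6 motifs. The BASS6 stretch holds the auxin response element on the opposite strand, as GAGACA with its first base at position -238 from the start, and GLU1 is the only other member with these letters, which 10.7% of the 250-base stretches of 21028 listed genes hold. The W-box letters occur in GLYK, DIT2.1 and GS2 and in 45.2% of all stretches. None of the 8 members has the G-box, the I-box, the evening element or TGACG, which occur in 7.20%, 12.3%, 4.97% and 19.2% of all stretches.

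GLYK, which returns carbon to the Calvin cycle as 3-phosphoglycerate, was lower in the stressed groups. It was listed at 311 CPM in DMSO and 282 in Stress, and 341 in Pakerine and 269 in Stress + Pakerine. The Stress to DMSO ratio was 0.909 with a counting interval of 0.894 to 0.925. In pakerine-treated plants the stressed to non-stressed ratio was 0.788 with an interval of 0.775 to 0.801. Between the plastid steps at either end of the path, PLGG1 was 0.890 times as abundant as GLYK per kb in DMSO and 1.49 times in Stress. By coding length these ratios were 0.650 and 1.09.

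The dicarboxylate transporters had stress ratios on opposite sides of 1. DIT1, the 2-oxoglutarate and malate exchanger, was listed at 373 CPM in DMSO and 307 in Stress, and 395 in Pakerine and 336 in Stress + Pakerine. DIT2.1, the glutamate and malate exchanger, was listed at 119, 142, 131 and 162 CPM in the same order. The Stress to DMSO ratio was 0.823 for DIT1, with a counting interval of 0.810 to 0.836, and 1.2 for DIT2.1, with an interval of 1.17 to 1.23. DIT1 was thus lower in both stressed groups than in both non-stressed groups and DIT2.1 higher.

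The ratio of DIT1 to DIT2.1 per kb, which does not depend on the scaling of the libraries, was 2.98 in DMSO and 2.85 in Pakerine. It was 2.05 in Stress and 1.97 in Stress + Pakerine. DIT2.2, the neighbour of DIT2.1 on chromosome 5 that encodes a related transporter, was listed at 51.5, 50.2, 57.8 and 46.5 CPM in DMSO, Stress, Pakerine and Stress + Pakerine. DIT2.1 was 2.18 times as abundant as DIT2.2 per kb in DMSO and 3.30 times in Stress + Pakerine. Of the 2194 stretches of 75 bases in the DIT2.1 transcript 0 occur in another gene. Of the 2070 in the DIT2.2 transcript, 283 also occur at AT5G64270, and what this does to the listed level of DIT2.2 was not tested.

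The assimilation enzymes also had stress ratios on opposite sides of 1. The Stress to DMSO ratio was 0.888 for GS2, with a counting interval of 0.882 to 0.894, and 1.21 for GLU1, with an interval of 1.2 to 1.22. With pakerine and no stress both were higher than in DMSO, GS2 by a ratio of 1.18 and GLU1 by a ratio of 1.27. In pakerine-treated plants stress went with lower values of both, a ratio of 0.779 for GS2 and 0.938 for GLU1. Per kb, GS2 was 3.89 times as abundant as GLU1 in DMSO and 2.85 times in Stress, and 3.63 times in Pakerine and 3.01 times in Stress + Pakerine. By coding length these ratios were higher, at 5.17, 3.79, 4.83 and 4.01 in the same order.

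GS2 took a smaller share of the glutamine synthetase transcripts under stress. Of the CPM per kb summed over GS2 and the 5 cytosolic genes GLN1.1 to GLN1.5, GS2 held 77.8% in DMSO and 78.5% in Pakerine. It held 64.8% in Stress and 67.7% in Stress + Pakerine. The cytosolic gene GLN1.1 was listed at 73.5 CPM in DMSO and 207 in Stress, and 85.0 in Pakerine and 207 in Stress + Pakerine, and GLN1.2 at 320, 509, 376 and 429 CPM. The cytosolic genes summed to 284 CPM per kb in DMSO and 482 in Stress, while the whole family went from 1282 to 1368.

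GLU1 took a larger share of the glutamate synthase transcripts under stress. Of the CPM per kb summed over GLU1, its paralogue GLU2 and the NADH-dependent enzyme GLT1, GLU1 held 67.7% in DMSO and 77.2% in Stress, and 71.3% in Pakerine and 78.3% in Stress + Pakerine. GLT1 was listed at 798 CPM in DMSO and 575 in Stress, and 857 in Pakerine and 514 in Stress + Pakerine. GLU2 was listed between 93.3 and 105 CPM in all 4 groups, and GLU1 was 14.5 to 19.1 times as abundant per kb. The shares by coding length differed from these by less than 1.2 percentage points.

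**Figure D3:**
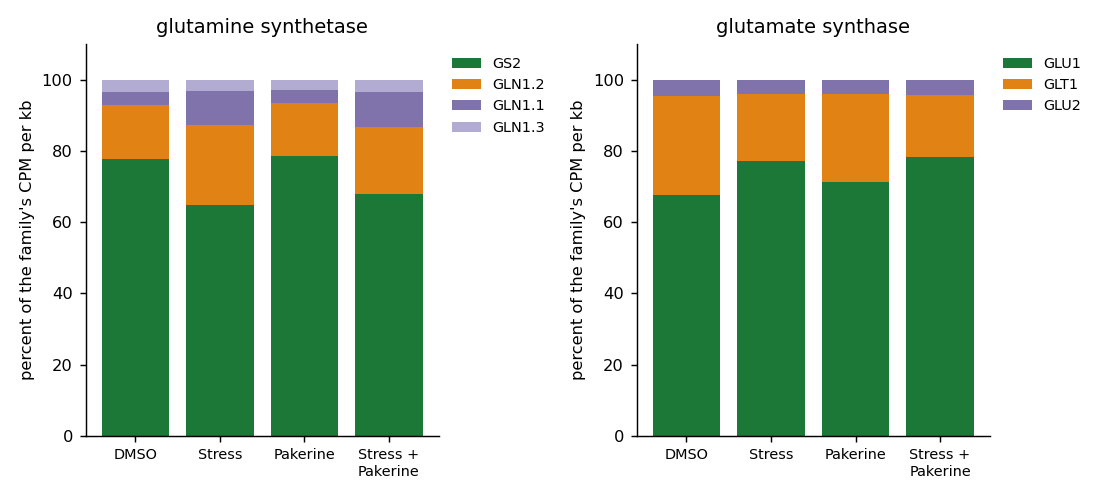
Share (vertical axis, percent) of each gene in the CPM per kb of transcript summed over the glutamine synthetase genes (left) and the glutamate synthase genes (right), as stacked bars for the 4 groups; GLN1.4 and GLN1.5 are too scarce to be seen and are not drawn. The plastid isoform GS2 takes 77.8% in DMSO and 64.8% in Stress, and GLU1 takes 67.7% and 77.2%.

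Across the comparisons, few members passed 1.5-fold on the log2 ratio of mean CPM plus a pseudocount of 0.5 CPM. Against DMSO, stress put 2 of 7 members past 1.5-fold higher, PLGG1 and BASS6, and 0 lower. Of the 18658 genes that averaged at least 1 CPM, 8.99% were past 1.5-fold higher and 7.3% lower in this comparison. The median log2 ratio was 0.26 over the 7 members and -0.06 over the 18658 genes, and 4 of 7 members and 42.3% of the genes were above 0. PLGG1 lies at the edge of the threshold, as its counting interval spans it, and the next member is GLU1 at 0.28.

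Pakerine without stress put 0 of 7 members past 1.5-fold in either direction, where 5.09% of all genes were higher and 1.57% lower. All 7 were nevertheless above 0, from 0.08 for DIT1 to 0.47 for PLGG1 on the log2 scale, with a median of 0.24 against -0.03 over all genes, 43.3% of which were above 0. The sums of the leaf markers and of the root markers were also higher in Pakerine than in DMSO, but of the 6 leaf markers 1 was past 1.5-fold higher, CA1, and 2 were lower, LHCB1.1 from 126 to 53.6 CPM and LHCB2.1 from 84.1 to 39.5 CPM. Their part in this result was not tested. Under stress, pakerine again put 0 members past 1.5-fold, where 5.52% of all genes were higher and 0.788% lower. The 7 log2 ratios then ran from -0.07 for GLYK to 0.34 for BASS6, and 4 of 7 were above 0 against 51.3% of all genes.

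In pakerine-treated plants, stress put 1 of 7 members, BASS6, past 1.5-fold higher and 0 lower, where 8.7% of all genes were higher and 4.92% lower. The lowest log2 ratios were -0.36 for GS2 and -0.34 for GLYK, and the median was -0.09 against -0.03 over all genes. Both treatments against DMSO put PLGG1 and BASS6 past 1.5-fold higher and 0 lower, where 12.8% of all genes were higher and 5.99% lower. PLGG1 had a log2 ratio of 0.60 there and 0.60 for stress alone. Comparisons that share the DMSO or the Pakerine group are not independent of each other.

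The stress effects with and without pakerine differed by 1.5-fold in 0 of 7 members, where 2.29% of all genes were higher and 0.884% lower. The difference on the log2 scale was -0.47 for PLGG1, -0.37 for GLU1, -0.21 for GLYK and -0.19 for GS2. It was 0.09 for BASS6, 0.05 for DIT1 and 0.05 for DIT2.1. The median was -0.19 over the 7 members and 0.03 over all genes.

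**Figure D4:**
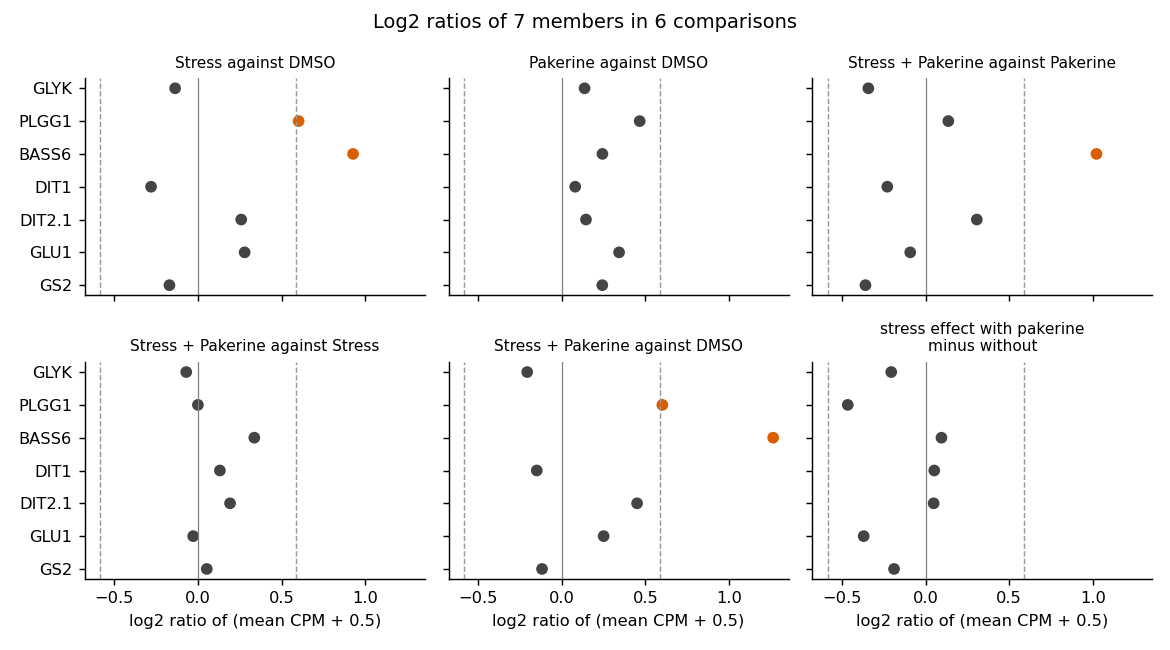
Log2 ratio of mean CPM plus 0.5 (horizontal axis) of 7 members in 6 comparisons, 1 panel per comparison, with dashed lines at 1.5-fold and members past it in orange. PLGG1 and BASS6 are past the line with stress against DMSO, all 7 members are above 0 with pakerine against DMSO, and PLGG1 is lowest, at -0.47, where the stress effects are subtracted.

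The peroxisomal and mitochondrial steps give the setting for these values. Of the 10 genes of the peroxisomal and cytosolic steps, 2 were past 1.5-fold higher with stress against DMSO, CAT2 and GOX1, and 0 lower, with a median log2 ratio of 0.53. CAT2, the gene disrupted in all of these plants, had the highest ratio at 1.94. The hydroxypyruvate reductase gene HPR2 had the lowest at -0.02. Of the 11 mitochondrial genes, 2 were past 1.5-fold higher, GLDP1 and GLDP2, which encode the P protein of glycine decarboxylase and had log2 ratios of 1.39 and 1.01, and 0 were lower. The lowest was GDCH2, for an H protein of the same complex, at -0.34, and the median was 0.22. With pakerine and no stress, 18 of the 21 genes of these lists were above 0 with a median of 0.28, beside 7 of 7 members and a median of 0.24. For the difference of the stress effects with and without pakerine, 5 of the 21 were above 0 with a median of -0.30. The members had 3 of 7 above 0 and a median of -0.19 there, and 56.6% of all genes were above 0. The lowest of these differences in the 2 lists were -0.45 for GOX1 and -0.51 for GLDP1, beside -0.47 for PLGG1.

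The other ammonium and amide enzymes went both ways under stress. Of the 10 that averaged at least 1 CPM out of 12, GLN1.1, GLN1.2 and GLN1.4 were past 1.5-fold higher in Stress against DMSO, and the glutamate dehydrogenase GDH2 and the asparagine synthetases ASN1 and ASN2 were past 1.5-fold lower. ASN1 had the lowest log2 ratio at -1.96 and was listed at 493, 126, 265 and 46.9 CPM in DMSO, Stress, Pakerine and Stress + Pakerine. ASN2 went from 594 CPM in DMSO to 294 in Stress, and GDH2 from 1249 to 713. The scarce GLN1.4, whose reads were recovered, rose from 0.772 ± 0.231 CPM (SD, n = 3) to 1.55 ± 0.143 CPM (SD, n = 3), with an adjusted p of 0.00365 in limma. In Stress + Pakerine against Pakerine 1 of the 10 was past 1.5-fold higher, GLN1.1, and 5 were lower, GLT1, GDH1, GDH2, ASN1 and ASN2.

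**Figure D5:**
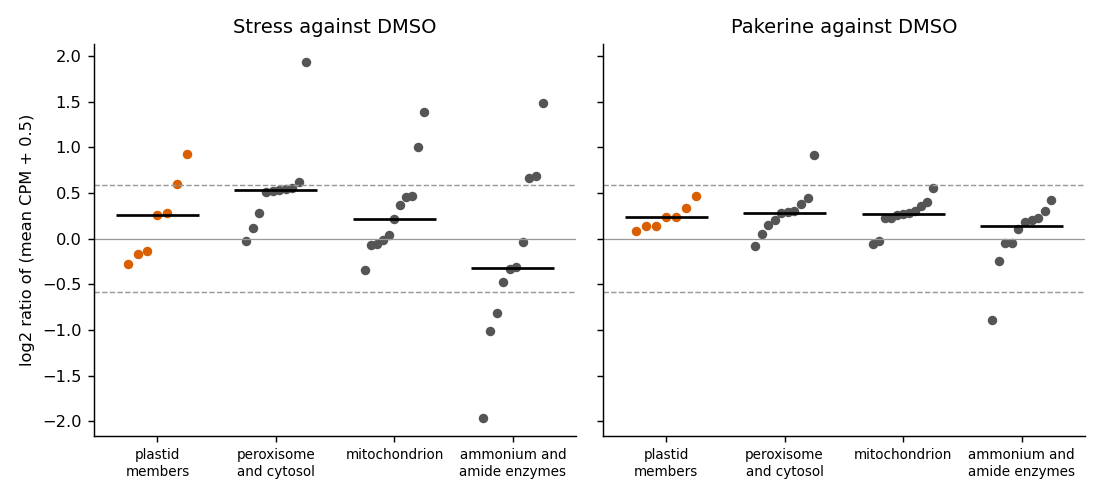
Log2 ratio of mean CPM plus 0.5 (vertical axis) for stress against DMSO (left) and pakerine against DMSO (right), 1 point per gene that averaged at least 1 CPM, for the 7 plastid members in orange and for the genes of the other photorespiratory compartments and of ammonium metabolism in grey, with medians as bars and dashed lines at 1.5-fold. The medians with stress are 0.26, 0.53, 0.22 and -0.32, and with pakerine they are 0.24, 0.29, 0.27 and 0.14.

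The genes whose 3 log2 ratios to DMSO were closest to those of a member, among 12661 other genes of at least 10 CPM, are given as a description over 4 group means. The closest to PLGG1 was GOX1, the glycolate oxidase gene that acts on the glycolate PLGG1 exports, at a distance of 0.031 on the log2 scale, and 40 genes lay within 0.2. GOX1 was listed at 823, 1265, 1124 and 1265 CPM in DMSO, Stress, Pakerine and Stress + Pakerine. For BASS6 the closest was UGT84A2, a glycosyltransferase gene, at 0.104, and 15 genes lay within 0.2.

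The other members had patterns that many genes share. The closest genes were AT4G33500 for GLYK, AT1G35780 for DIT1, ABCG42 for DIT2.1, the plastid-encoded ATCG00270 for GLU1 and RCP1 for GS2, at distances of 0.011 to 0.044. Within 0.2 of them lay 1151 genes for GLYK, 1435 for DIT1, 358 for DIT2.1, 167 for GLU1 and 438 for GS2. Among the members themselves GLYK and GS2 were closest to each other, at 0.142, and BASS6 was the farthest from any other, at 0.772 from PLGG1. For PGLP1, whose ratios are set by the pseudocount, the closest gene was AT5G25757 and 3306 genes lay within 0.2.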

How the data were processed

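RNA of 12 libraries, 3 per group, was read as single-end reads of 75 bases. According to the methods and the submitters' processing notes, the authors trimmed with Trim Galore 0.3.3, mapped the reads to TAIR10 in TopHat2 2.1.0, and took gene counts from featureCounts (Subread 1.4.6). The values used are the mean CPM per group that the authors deposited, with 10 significant digits. The table also holds the authors' log2 fold changes, p-values, FDR and calls, which were not used. No other per-sample columns were present (0).

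The groups were compared by the log2 ratio of mean CPM plus 0.5 CPM over genes averaging at least 1 CPM, with 1.5-fold as the threshold. Library sizes and, under 10 CPM, whole reads per library were recovered as the only whole numbers that give the listed means, which held for 8463 of 8463 such genes. Log2(CPM + 0.5) of these reads was fitted with limma 3.58.1 (R 4.3.3) over all 4 groups with a mean trend, an analysis chosen after the values had been seen. It was repeated with the median of each library set equal, with other pseudocounts, with no filter and without each library in turn. The ratios were repeated with other scalings, pseudocounts, filters and thresholds. The procedures were tested on simulated data. Positions and lengths come from RefSeq TAIR10.1, a release of the authors' TAIR10. The table gives no coordinates. Named genes are all members and near copies, the list genes past 1.5-fold or at a list's extremes, and the gene closest to each member. Members and lists were chosen with earlier results of these data known. Python 3.11.15 with numpy 2.4.6, pandas 2.3.3, scipy 1.17.1 and matplotlib 3.10.9 was used.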

Additional observations from a re-analysis of the deposited data

How the results depend on the processing

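With no filter on low values the numbers of members past 1.5-fold were as reported. Of 42 log2 ratios of the 7 members, 0 crossed 1.5-fold when the median of genes of at least 10 CPM was set to 0, when organelle-encoded genes were left out or with pseudocounts of 0.1 and 1 CPM. Only 1 changed sign, PLGG1 in Stress + Pakerine against Stress, from -0.0007 to 0.0152. A filter of 10 CPM, for which the share of all genes is not given, removes BASS6. The members past 1.5-fold higher then became 1 in Stress against DMSO, 0 in Stress + Pakerine against Pakerine and 1 in Stress + Pakerine against DMSO. With 2-fold as the threshold they became 0 in Stress against DMSO (3.73% of all genes) and 1 in Stress + Pakerine against DMSO (6.04%). In Stress against DMSO this rests on the pseudocount, as the BASS6 log2 ratio was 0.93 with 0.5 CPM and 1.02 with 0.1 CPM. With 1.2-fold, 3 members were higher (19.3% of all genes) and 1 lower (26.3%) in Stress against DMSO, and 2 were higher in Pakerine against DMSO (12.4%). In Stress + Pakerine against Pakerine 2 were higher (19.3%) and 2 lower (21.1%). In Stress + Pakerine against Stress 1 was higher (14.3%), and in Stress + Pakerine against DMSO 3 were higher (23.7%). For the difference of the stress effects with and without pakerine, 2 were lower (7.51%). Leaving out each of the 12 recovered libraries in turn, which leaves 2 in a group, moved the BASS6 log2 difference between 0.88 and 1.00 for Stress against DMSO (adjusted p up to 0.000329 in limma) and between 0.97 and 1.08 for Stress + Pakerine against Pakerine (up to 0.000198), and no BASS6 call changed. With the median of each library set equal these differences were 1.02 and 1.04, and the difference of the stress effects went from 0.09 to 0.02. For the other members, leaving out a library could not be run, since their reads per library are not recovered. No paired analysis was possible because the columns are group means and the recovered libraries carry no replicate number. Depth limits PGLP1, at 15 to 20 reads per group.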
